A study of Mus musculus with 8 samples.

Results

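Gab2 and Socs3 are genes of cytokine signalling whose spans both hold cytosines listed as methylated in the poly(A) RNA of mast cells lacking Tet2. Their sites were found by position: a site of the deposited table was taken when it lay inside the RefSeq span of either gene on mouse build GRCm38. This gave 98 of the 8492 listed sites, 93 in Gab2 and 5 in Socs3. The cells were mast cells cultured from C57BL/6 bone marrow in IL-3 and SCF and stained for the IgE receptor FcɛRI and for c-Kit as a check of purity, and the knockout genotype is given as Tet2-/-. The labels describe 4 wild-type and 4 Tet2-/- libraries, each genotype with 2 biological replicates of 2 technical replicates. The levels used here are those of the 4 Tet2-/- libraries, and the title of the table calls its sites specific to that genotype. Levels in wild-type cells were not used, so nothing below compares the genotypes. The table holds no expression values, so the mast cell identity could not be checked against marker genes.

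Gab2 is a docking protein. When KIT, the receptor for SCF, or the IgE receptor is engaged, Gab2 is phosphorylated and binds the phosphatase SHP2 and the regulatory subunit of PI3-kinase, and so carries the signal to the RAS and AKT pathways. SOCS3 works in the opposite sense: it is made in response to cytokines, binds activated receptors through its SH2 domain, blocks JAK kinases and, through its SOCS box, brings an E3 ubiquitin ligase to its targets. TET2 oxidises 5-methylcytosine, and RNA bisulfite sequencing reads a methylated cytosine as one that stays cytosine after bisulfite has turned unmodified cytosines into uracil. The methylation level is the percentage of reads at a position that kept the cytosine. An unmodified cytosine that escaped conversion counts in the same way, and without read numbers the exact depth of every level is unknown. Transcript structure and genome sequence at the sites were not used here, and the table gives no strand, so exon, intron, untranslated region and sequence context are not stated. Whether the sites belong to transcripts of these genes or to other RNA from the same span was not tested.

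The mean level of the Gab2 sites was higher than that of the Socs3 sites. For biological replicate 1, Gab2 stood at 59.3% in technical replicate 1 and 43.5% in technical replicate 2. For biological replicate 2 the technical replicates gave 56.0% and 52.9%. In Socs3 the libraries in that order stood at 36.4%, 45.6%, 42.1% and 36.3%. Gab2 was thus the higher gene in 3 libraries, while in technical replicate 2 of biological replicate 1 it was the lower one, by 2.12 points. After technical replicates were averaged, Gab2 stood at 52.9% ± 2.17 and Socs3 at 40.1% ± 1.28 (SD, n = 2 for both). The difference of 12.8 ± 3.45 points (SD, n = 2) exceeded the spread between biological replicates, at 10.4 points in the first and 15.3 points in the second. The technical replicates of the first, at 22.9 and -2.12 points, lay further apart than the biological replicates. No test was made, since sites of a gene are not replicates and there are only 2 biological replicates. The direction of the difference depended on which sites were counted. With sites closer than 11 bases to another left out, 4 sites of Gab2 and 2 of Socs3 remained. The difference was then -1.58 points. The Gab2 sites left came from regions 1, 2 and 4, as numbered below, and none from region 3, which held 41 sites. This setting thus changed the regions counted as well as the spacing of the sites.

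**Figure D1:**
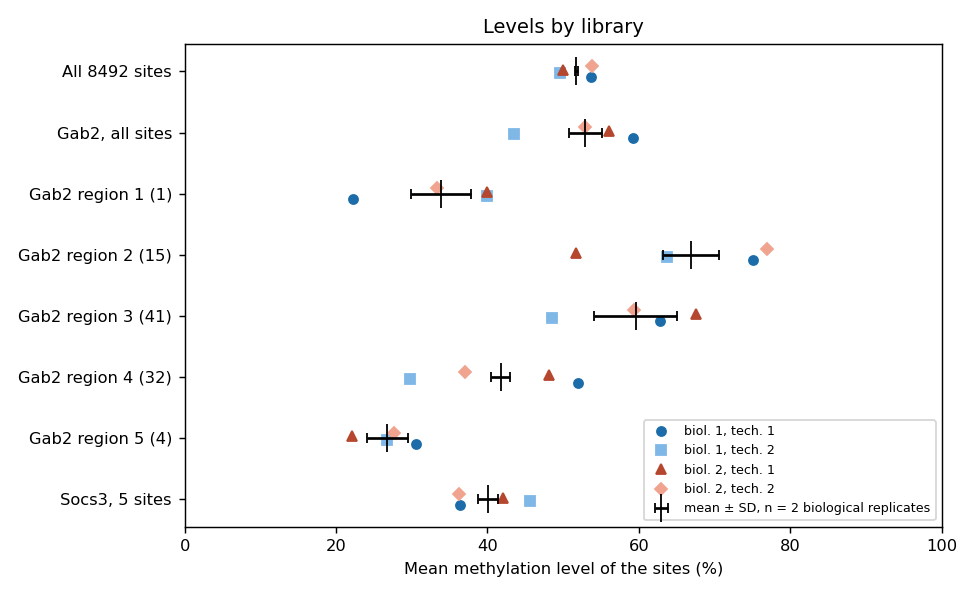
Mean methylation level in percent (horizontal axis) over all listed sites of the table, over Gab2, over each of its 5 regions and over Socs3; symbols are the 4 Tet2-/- libraries by biological and technical replicate, the black bar is the mean with its SD (n = 2 biological replicates), and numbers in brackets are sites. Gab2 regions 2 and 3 lie above the Socs3 sites in every library and region 5 below them.

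In Socs3, all listed sites lay within 45 bases. The gene spans 4258 bases of chromosome 11, from 117966079 to 117970336, and is read from the minus strand according to the RefSeq promoter table. The sites fell between 117967485 and 117967529, which is 1837 to 1881 bases downstream of the transcription start read from the window of this table. That start, 117969366, lies inside the gene span, and from the upper end of the span the sites were 2807 to 2851 bases away. The window of that table around the start, from 117969317 to 117969616, held 0 listed sites. No other listed site lay within 2840124 bases below or 2750383 bases above the gene, so the cluster stood alone on this part of the chromosome. That position tells nothing of unlisted cytosines: the lowest level in the table is 10%, and how its sites were selected is not given in the sources.

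The levels of the Socs3 sites were of like size. The site at 117967485 had 23.1% and 37.5% in the technical replicates of biological replicate 1 and 42.9% in both of biological replicate 2. It was the only one of the 5 at which biological replicate 2 was the higher one, with no overlap of the libraries. The site at 117967507 had 38.5% and 57.1%, then 42.9% and 35.7%, and its 57.1% was the only Socs3 value above 50%. The site at 117967518 was the lowest by mean, with 35.7% and 44.4% in biological replicate 1 and 35.7% and 28.6% in replicate 2, or 36.1% ± 5.61 (SD, n = 2). At 117967522 the levels were 38.5%, 44.4%, 42.9% and 35.7% in the same order. At 117967529 they were 46.2%, 44.4%, 46.2% and 38.5%, which gave the highest mean, 43.8% ± 2.12 (SD, n = 2). The lowest and the highest site mean differed by less than the widest gap between libraries at a single site, 21.4 points. Technical replicate 2 of biological replicate 2 was the lowest library at 4 of the 5 sites.

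**Figure D2:**
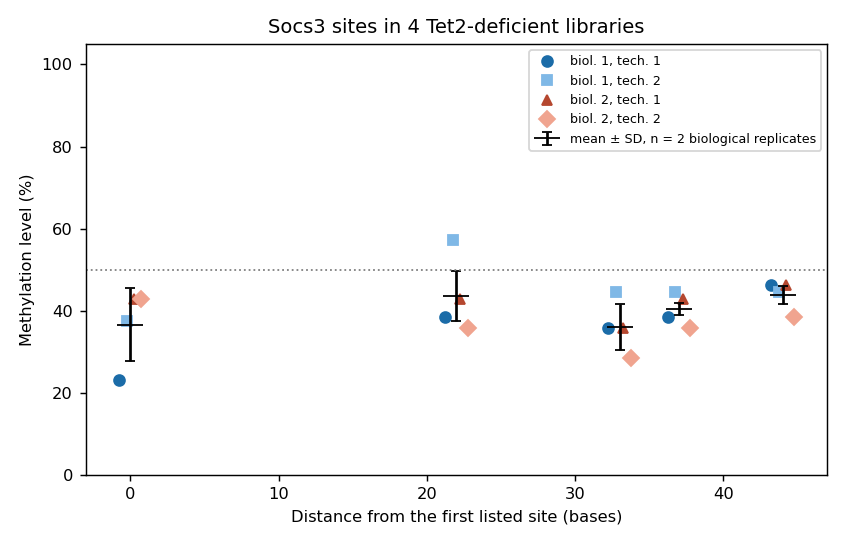
Methylation level in percent (vertical axis) of the 5 Socs3 sites against the distance in bases from the first of them (horizontal axis); symbols are the 4 Tet2-/- libraries, drawn slightly apart sideways, and bars are the mean with its SD (n = 2 biological replicates). All values but one, 57.1% at 117967507, lie under the dotted line at 50%.

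In Gab2, the listed sites lay in 5 separate stretches that cover a small part of a long gene. The gene spans 227201 bases of chromosome 7, from 97081751 to 97308951. Sites up to 500 bases apart were joined into a region, and the regions are numbered 1 to 5 from the lower coordinate. Region 1 was the single site at 97096460. Region 2 held 15 sites from 97097670 to 97097803, region 3 held 41 sites from 97149966 to 97150184, region 4 held 32 sites from 97241945 to 97242093, and region 5 held 4 sites from 97272504 to 97272519. Regions 3 and 4 together thus held most of the sites, and they lay 91761 bases apart. The lowest site was 14709 bases above the lower end of the span and the highest 36432 bases below the upper end. RefSeq has no other gene that overlaps Gab2. The neighbours Nars2, a mitochondrial asparaginyl-tRNA synthetase 16993 bases below, and Usp35, a deubiquitinase 452 bases above, had 0 listed sites each. The Socs3 neighbours, the long noncoding RNA Gm11725 and Pgs1, an enzyme of cardiolipin synthesis, had 0 as well.

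The regions of Gab2 differed in level. Region 2 had the highest mean, 66.9% ± 3.66 (SD, n = 2), from technical replicates at 75.1% and 63.8% for the first biological replicate and 51.6% and 76.9% for the second. Region 3 followed at 59.5% ± 5.49, with 62.8% and 48.5% for the first and 67.5% and 59.3% for the second. These 2 regions overlapped: region 2 was the higher one in 3 libraries and the lower one in technical replicate 1 of biological replicate 2, and their difference of 7.30 points was smaller than its SD of 9.15.

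Region 4 was lower, at 41.7% ± 1.22 (SD, n = 2), with 52.0%, 29.7%, 48.1% and 37.0% in the 4 libraries in the same order. It lay under region 2 by 25.1 ± 4.87 points and under region 3 by 17.8 ± 4.27 points, in 4 of 4 libraries for both. Region 5 was the lowest, at 26.8% ± 2.70, with library values from 22.1% to 30.6%, and lay under region 4 in 4 of 4 libraries by 15.0 ± 3.91 points. The lone site of region 1 ranged from 22.2% to 40% between libraries. From the lower coordinate upward the level was thus low, high, high, intermediate and low, and the mean with each region counted once was 45.8%.

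Set beside Socs3, the Gab2 regions lay on both sides. Region 2 was above the Socs3 sites by 26.8 ± 2.38 points and region 3 by 19.5 ± 6.77 points (SD, n = 2), each in 4 of 4 libraries. Region 4 differed from Socs3 by 1.64 ± 2.49 points, which is within its SD, and was the higher one in 3 libraries. Region 5 was below Socs3 in 4 of 4 libraries, with a difference of -13.3 ± 1.42 points, and the single site of region 1 was below it in 4 of 4 libraries as well.

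**Figure D3:**
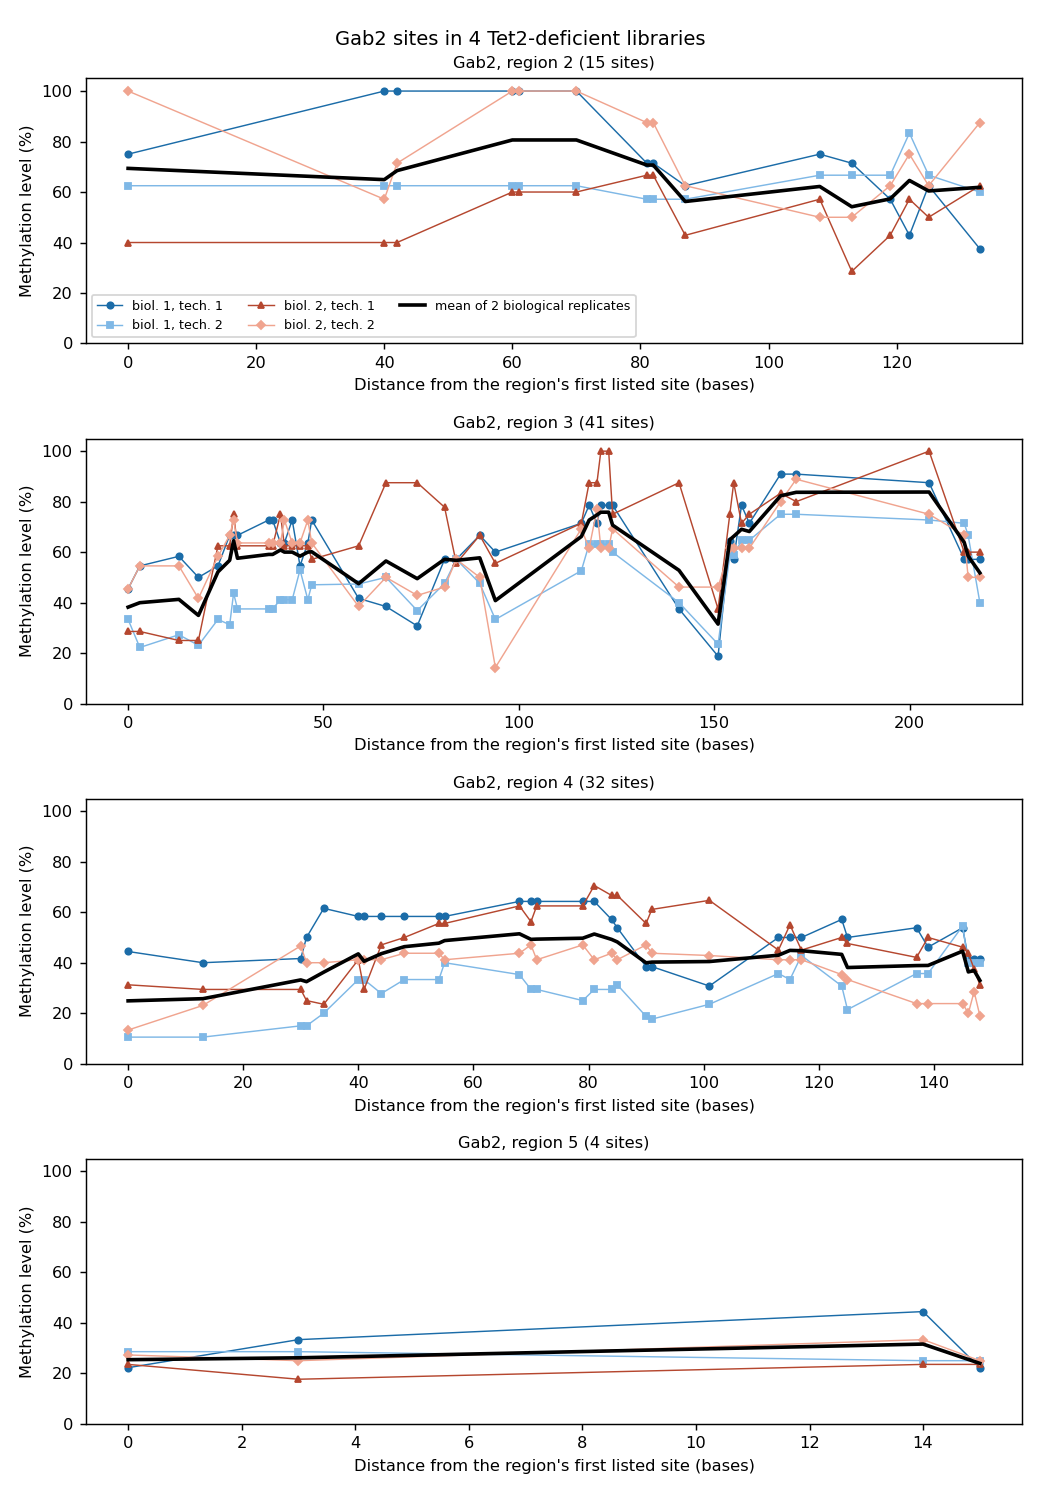
Methylation level in percent (vertical axis) of the Gab2 sites in regions 2 to 5 against the distance in bases from the first site of each region (horizontal axis); coloured symbols are the 4 Tet2-/- libraries and the black line is the mean of the 2 biological replicates, while region 1 is a single site and is not drawn. Region 3 dips to 31.5% at 97150117 between sites of higher level, and no site mean of region 4 is above 51.5%.

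Single sites of Gab2 had means from 23.9% to 83.8%, with a median of 52.2% and the middle 50% of sites between 40.6% and 63.8%. The highest site was 97150171 in region 3, with 87.5%, 72.7%, 100% and 75% in the 4 libraries. The lowest was 97272519 in region 5, with 22.2%, 25%, 23.5% and 25%, and its neighbour 97272518 was the highest of that region at 31.6% ± 4.45 (SD, n = 2). In region 2 the highest mean was 80.6%, at 97097730. There technical replicate 1 of biological replicate 1 and technical replicate 2 of biological replicate 2 both read 100%. The remaining libraries read 62.5% and 60%. All 4 levels are fractions that a handful of reads can give, and depth was not tested. The lowest of that region was 97097783, at 54.2% ± 21.0 (SD, n = 2). In region 4 the means ran from 24.9% at 97241945 to 51.5% at 97242013, and the former shared the lowest single value in Gab2, 10.5%, with its neighbour 97241958, close to the 10% that is the lowest level in the table.

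Levels could change within a few bases. The widest step between neighbouring sites up to 10 bases apart was in region 3, where 97150117 stood at 31.5% ± 14.6 and 97150120 at 64.9% ± 4.75 (SD, n = 2). The libraries read 64.3%, 58.8%, 75% and 61.5% at the higher site against 18.8%, 23.5%, 37.5% and 46.2% at the lower one. The pair was picked by its mean step in these same libraries, so their agreement is no separate support. Such steps were the exception: over the 74 neighbouring pairs of Gab2 the median step was 2.09 points, and over the 6597 pairs of the table it was 2.65 points. At 5 of the 74 Gab2 pairs the levels were equal in all 4 libraries, against 6.61% of pairs in the table, which is close to the Gab2 share of 6.76%. These equal pairs lay at 97097730 to 97097740, at 97097751 and 97097752, at 97150002 and 97150003, and at 97150087 and 97150089. A neighbour no more than 10 bases away was listed for 89 of the 93 Gab2 sites and for 3 of the 5 Socs3 sites, against 93.7% of the table. Some Gab2 sites came right after another listed position, which was not counted over the table.

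Sites of high level were confined to regions 2 and 3 among the 93 Gab2 sites. In all, 24 of them (25.8%) had 50% or more in every library, 7 in region 2 and 17 in region 3, while regions 1, 4 and 5 and Socs3 had 0. In the table as a whole 33.6% of sites met that level, so the Gab2 share was below the background, though sites of a region are not independent. Single libraries read 100% at some Gab2 sites, which was not set against the table, and no Gab2 site did so in all 4 libraries. At the other end, 83 Gab2 sites and all 5 Socs3 sites had 20% or more in every library, against 75.5% of the table.

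The libraries differed more in Gab2 than over all sites. Pairs of technical replicates differed by 17.9 points on average at Gab2 sites and pairs of biological replicates by 15.3 points, against 13.5 points for both kinds of pair over all sites. In Socs3 the averages were 7.86 and 7.89 points. Technical replicate 2 of biological replicate 1 was the low library of Gab2: it was lower than technical replicate 1 of the same cells at 76 of the 93 sites (81.7%) and higher at 16. Over all sites it was lower at 57.4% and higher at 36.9%, and in Socs3 it was higher at 4 of 5 sites. Over the table this library had a mean of 49.5%, the lowest of the 4, but there the range of the libraries was only 49.5% to 53.8%. In region 4 it was the lowest library at 24 of 32 sites, and in region 3 at 23 of 41, which was not counted over the table. Sites of a region can share reads, so these counts are not independent. In region 2 another library was low, technical replicate 1 of biological replicate 2 with 51.6%, so the low library was not the same in every region.

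Biological replicates were separated at few Gab2 sites. At 19 of the 93 (20.4%), both libraries of one biological replicate lay above both of the other, against 30.4% of the table. Replicate 1 was the higher one at 7 of these (14.7% in the table) and replicate 2 at 12 (15.7% in the table). With 2 against 2 libraries, values in random order would give a share of 0.333, or less with ties. Separation at a site is thus not by itself a difference between biological replicates. In region 3, 8 sites had replicate 2 higher and 0 had replicate 1 higher. In Socs3 this held for 1 site, with replicate 2 higher. The widest gap between biological replicates was at 97097710 in region 2, where the libraries read 100% and 62.5% against 40% and 57.1%, or 64.9% ± 23.1 (SD, n = 2). If the second number in the column names is the biological replicate instead, 40 Gab2 sites (43.0%) were separated, against 26.3% of the table under that reading. The first replicate so defined was the higher one at 35 of them and the second at 5. The SD of Gab2 became 6.71 points, that of Socs3 1.20 points and that of their difference 7.91 points. The means do not depend on that reading.

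Close sites of Gab2 moved together between libraries. Over 166 pairs of Gab2 sites 1 to 10 bases apart, the deviations of the sites from their own means, with library means over Gab2 removed, correlated at 0.62. The correlation was 0.23 over 521 pairs 11 to 50 bases apart and 0.03 over 656 pairs 51 to 150 bases apart. Over all sites, with the library means of the whole table removed, the values in these bins were 0.76, 0.51 and 0.25, so moving together is not particular to Gab2. Shifts of a whole gene between libraries stay in the values over all sites, so these are not like for like with those of Gab2. With library means kept, the Gab2 correlation at 1 to 10 bases was 0.74. Beyond 150 bases the Gab2 correlation, with library means over Gab2 removed, was -0.27. Its 84 pairs all lie in region 3, the only one long enough to hold them. Taken region by region, with the library means of each region removed, it was 0.55, 0.41 and 0.71 at 1 to 10 bases in regions 2, 3 and 4. It was -0.05, 0.07 and -0.02 at 11 to 50 bases, and -0.27, -0.15 and -0.26 at 51 to 150 bases. The deviations of a region then cancel out in each library, so where close pairs are positive, distant pairs tend to be negative by construction. The negative values are therefore not read as a property of the sites. All these correlations are descriptions over pairs of sites that share libraries and can share reads.

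Among the 62 genes with at least 5 listed sites, Gab2 had a middling level and many regions. Its mean was above that of 41 of these genes, and its number of sites above that of 40. Its 5 regions were more than 55 of the genes had, against a median of 2. The range of its library means, 15.8 points, was wider than in 47 of them. Socs3 had a mean above that of 24 genes and was among those with the fewest sites. Among the 146 regions of the table with 10 or more sites, the mean of Gab2 region 2 was above that of 108, of region 3 above 99 and of region 4 above 61. Listed sites were dense in region 4, with 21.5 per 100 bases, more than in 136 of the 146, and in region 3, with 18.7 per 100 bases. Socs3 had 11.1 per 100 bases.

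Among the genes with at least 5 listed sites, those nearest to Gab2 in level, by the mean absolute difference of the gene means over the 4 libraries, were Mctp1, a membrane protein with C2 domains that bind calcium, Zfand6 and Cyp4a12b, a cytochrome P450. Mctp1 differed by 3.74 points on average, with 186 sites at 51.6% ± 1.55 (SD, n = 2). Zfand6 differed by 5.51 points and Cyp4a12b by 5.55 points. Nearest to Socs3 among the same genes were Fndc3a with 73 sites, the zinc finger gene Zfp950 with 11 sites and the long noncoding RNA 4933406I18Rik with 198 sites. They differed from Socs3 by 3.72, 4.09 and 4.13 points. Likeness over only 4 libraries, whose overall means are alike, is a description of levels.

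**Figure D4:**
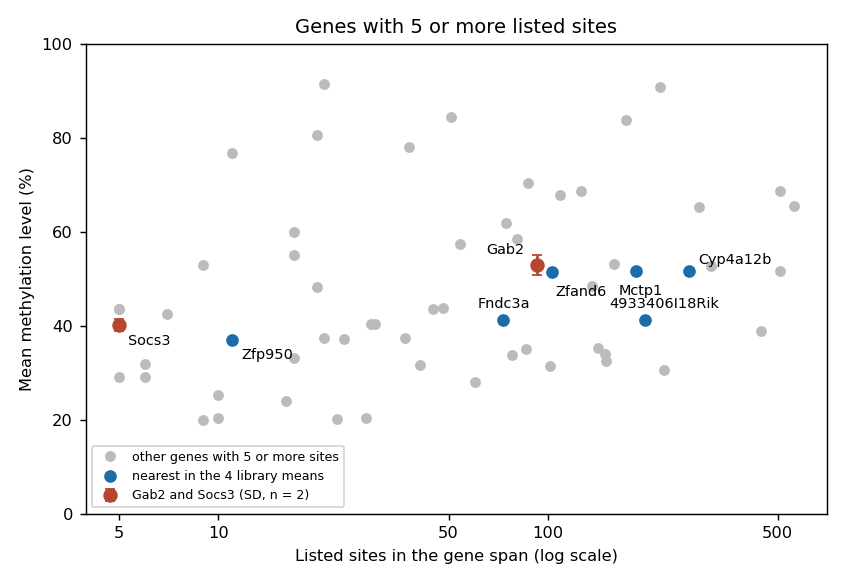
Mean methylation level in percent (vertical axis) against the number of listed sites (horizontal axis, log scale) for the 62 genes with 5 or more listed sites; red points are Gab2 and Socs3 with their SD (n = 2 biological replicates), blue points are the 3 genes nearest to each in the 4 library means, grey points are the other genes. The mean of Gab2, 52.9%, is above that of 41 of these genes, and that of Socs3, 40.1%, is above that of 24.

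Other genes of these pathways were looked up in 9 lists. Of their 152 genes, 3 had at least 1 site, Gab2 and Socs3 included. Without these 2, which were chosen for having sites, it was 1 of 150 genes (0.667%), against 0.22% of all 49997 RefSeq genes. The latter include noncoding genes and pseudogenes, and with 1 gene no excess can be read from these shares. Gab2 was 1 of 25 docking proteins and adaptors with a site, and its relatives Gab1 and Gab3 had 0. Socs3 was 1 of 24 SOCS family members and other feedback inhibitors, and the other SOCS genes and Cish had 0. Of 16 genes of the RAS and MAP kinase pathway only Mapk14, the stress kinase p38 alpha, had a site, at 28691536 on chromosome 17. Its levels ran from 16.7%, in technical replicate 2 of biological replicate 1, to 33.3%, in technical replicate 2 of biological replicate 2, with a mean of 24.3% ± 6.87 (SD, n = 2). It was below the means of Gab2 and of Socs3 in every library. Receptors and ligands (30 genes, among them Kit, Kitl, Il3 and Csf2rb), JAK kinases and STAT factors (11), PI3-kinase and AKT (16), kinases next to the IgE receptor (13), partners of the SOCS box (6) and STAT target genes (12) had 0. The lists do not hold every gene of these kinds. Outside them, and named after their values were seen, the IL-33 receptor Il1rl1 had 445 sites, the growth factor Angpt1 had 109, the survival gene Bcl2 had 20 and the TGF-beta receptor Tgfbr1 had 4. Read numbers were not used, so a gene without a listed site is not shown to be unmethylated.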

How the data were processed

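RNA bisulfite sequencing was carried out on poly(A) RNA, with lambda RNA as an unmethylated control and stranded paired-end libraries, per the labels' protocols. The deposited values are methylation rates per site and library, a fraction from 0 to 1 per the file headers, and were multiplied by 100 here. The submitters' processing notes name mm10 and GRCm38. The sources used here do not give the aligner, caller, coverage minimum or selection rule. Column names were read as biological replicate first, then technical replicate.

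Sites were assigned to RefSeq spans of GRCm38.p6. Technical replicates were averaged, and SDs are over 2 biological replicates. No test between samples was run: 2 against 2 libraries cannot give a two-sided permutation p below 0.333. The members and gene lists were chosen with earlier results of these data known; all 152 list genes matched RefSeq. Beside Gab2 and Socs3, the rule names list members with a site, neighbouring genes and the 3 genes nearest in level; single sites are all those of Socs3 and, in Gab2, the extremes of each region and the widest replicate gap. The sites 97150120 and 97241958, the equal pairs and 4 genes outside the lists were named after their values were seen. Other settings tried were leaving out clustered sites (another within 10 bases), level minimums, medians, merged positions, other region distances, single replicates, wider spans and the reverse reading of column names. Scripts were tested on simulated data. Python 3.11.15, numpy 2.4.6, pandas 2.3.3 and matplotlib 3.10.9 were used.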

Additional observations from a re-analysis of the deposited data

How the results depend on the processing

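The alternatives changed the mean of Gab2 more than that of Socs3, also in the settings run on both. Settings by region were not run on Socs3, which had 1 region, and the 20% minimum could not change it, since all 5 of its sites passed. The Gab2 mean of 52.9% became 38.5% without clustered sites, 55.3% with at least 20% in every library, 57.6% and 48.2% with technical replicate 1 or 2 only, and 45.8% with each region counted once. It was 50.2%, 47.7% and 58.8% without region 2, 3 or 4, an alternative chosen after seeing the data. The difference between Gab2 and Socs3 reversed to -1.58 points without clustered sites and was 5.67 points with each Gab2 region counted once, while it stayed between 10.4 and 15.3 points with either replicate left out. The Socs3 mean stayed between 39.2% and 41.0% under all 7 alternatives run. Merging positions up to 10 bases apart left 19 sites in Gab2 and 3 in Socs3. Gab2 sites past the level in every library numbered 41 at 40% and 13 at 60%. The other reading of the column names separated 40 Gab2 sites by biological replicate. The correlation of close Gab2 sites was 0.74 with library means kept and, chosen after seeing the data, 0.53 with library means of each region removed. The number of regions was 5 at 100 and 1000 bases too. No paired analysis was possible because pairing by replicate number concerns the genotypes, and wild-type levels were not used; differences between genes and between regions were taken within libraries. Without read numbers, the part of depth in these changes was not tested.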
